A study of Mus musculus with 4 samples.

Results

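The miR-34 and miR-449 family was measured by small RNA sequencing in mouse embryoid bodies (EBs) and in the embryonic stem cells (ESCs) they were made from. Its members were the 6 microRNA gene entries named mir-34a, mir-34b, mir-34c, mir-449a, mir-449b and mir-449c, out of 626 entries in all. The members were selected on their names as 1 family, and the family itself was chosen by its original counts in EBs and ESCs, which were already known, so the difference between EBs and ESCs is described here and not tested. The EB group consisted of day 8 aggregates of the mouse line CGR8, in which stem cells differentiate, made without leukemia inhibitory factor (LIF) in medium with 20% serum, as hanging drops of 1000 cells for 2 days and then for 6 days in suspension. The ESC group consisted of the same line at day 0, kept undifferentiated with LIF at 100 U/ml and 10% serum on gelatin without feeder cells. The labels give 129P2/OlaHsd as donor strain and C57BL/6 as background strain for every sample, name 2 samples per group, and describe all of them as embryonic stem cells in the source field. CGR8 is a single cell line, and an EB mixes cell types, so fewer cells of a type and less RNA per cell cannot be told apart.

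A microRNA is cut from a hairpin and recognises its targets mainly through its seed, the stretch from base 2 to base 8. The miR-34 genes are direct transcriptional targets of the tumour suppressor p53, and their products restrain proliferation by repressing cell cycle genes such as those of cyclins and their kinases. In mouse cells miR-34 also limits reprogramming to pluripotency, and loss of miR-34a widens the fates that pluripotent stem cells can take. The miR-449 genes lie in Cdc20b, and miR-449 is abundant in multiciliated epithelia, where it acts together with miR-34b and miR-34c.

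The mature sequences show why the entries are treated as 1 family although they come from 3 places in the genome. RefSeq, on GRCm38.p6, listed mature sequences for 5 of the 6 members, and these are the 4 of their sequences that come from the 5′ arm. Capitals mark the seed, and each sequence is written 5′ to 3′.
mmu-miR-34a-5p: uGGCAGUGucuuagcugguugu
mmu-miR-34b-5p: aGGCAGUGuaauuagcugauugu
mmu-miR-449a-5p: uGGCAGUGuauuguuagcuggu
mmu-miR-449c-5p: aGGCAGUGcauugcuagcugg
All 4 carry the seed GGCAGUG, and no other of the 1679 RefSeq mouse mature sequences searched does. The 5′ sequence of mir-34c and the sequences of mir-449b were not among those searched. The sequences from the 3′ arm of the pair on chromosome 9 share a different seed.
mmu-miR-34b-3p: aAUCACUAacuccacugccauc
mmu-miR-34c-3p: aAUCACUAaccacacagccagg
The deposited table counts by hairpin and does not separate the arms, so the counts below cannot be assigned to one arm or the other.

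The 3 loci lie on different chromosomes (GRCm38, GENCODE release M21). Mir34a spans 150068454 to 150068555 on the plus strand of chromosome 4, and it overlaps an exon of Gm37795 on the same strand. Mir34c (51103034 to 51103110) and Mir34b (51103562 to 51103645) lie on the minus strand of chromosome 9 within 612 bases, with Btg4 on the opposite strand and no exon overlapped. Mir449c (113035983 to 113036091), Mir449b (113037419 to 113037498) and Mir449a (113037534 to 113037624) lie on the plus strand of chromosome 13 within 1642 bases, in Cdc20b on the same strand and outside its exons.

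The total microRNA count was 139104 and 139360 in the EB columns and 557250 and 557643 in the ESC columns, so the EB columns were 4.0 times shallower. The paired columns were closer to each other than sampling noise allows, with a chi-square per degree of freedom of 0.284 for the EB pair and 0.235 for the ESC pair, where independent libraries give values near 1. Among the 6 members, 5 had the same count in both EB columns and 4 had the same count in both ESC columns. Of the 367 entries that passed a filter on low counts, 85 had the same count in both EB columns and 44 in both ESC columns. The members with equal counts include the 3 miR-449 entries, which had 12 counts or fewer in every column. The columns of a pair were averaged into 1 sample, so there is 1 library per group, no replicate check and no p-value. The intervals below are exact 95% intervals that cover counting error only, since copies made by PCR were counted as reads. As a check on the labels, the miR-302 and miR-367 entries of early differentiating pluripotent cells took 6.53% of the EB library and 0.0341% of the ESC library. The 6 stem cell entries mir-290a, mir-291a, mir-292a, mir-293, mir-294 and mir-295 summed to 520074 CPM (the count scaled to a library total of 1000000) in the EB library and 529959 CPM in the ESC library, but mir-294 was 4.10-fold higher in the EB library while 4 of the others were lower by 2-fold or more. Neural entries, which are copies of mir-124 and mir-9, summed to 1882 CPM in the EB library and 9569 CPM in the ESC library. Of these, 6 of 6 were lower by 2-fold or more, but copies are not separate evidence. Endoderm and liver entries summed to 222.7 CPM in the EB library and 805 CPM in the ESC library. There 3 of 3 measured entries were lower, namely mir-192 and the copies mir-194-1 and mir-194-2. Blood entries summed to 898 CPM in the EB library and 129 CPM in the ESC library, of which mir-142a made up 891 and 117 CPM. It was the only 1 of the 4 blood entries measured. Of the others, mir-223 had 1 count in the EB library alone, and mir-144 and mir-451a had counts in the ESC library alone. Muscle entries came to 7.18 CPM in the EB library, which is 1 count of mir-1a-1, and 0 in the ESC library. Only 2 of the 5 muscle entries listed were in the table. The part of these cell types in the results below was not tested.

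The family was less abundant in the EB library, and its loci differed in opposite directions. All members together had 735 and 743 counts in the EB columns and 4474 and 4454 counts in the ESC columns. That was 0.531% of EB counts (exact Clopper-Pearson interval 0.493 to 0.570) and 0.801% of ESC counts (0.778 to 0.825). After TMM scaling, a trimmed mean that aligns the bulk of entries between libraries, the family sum was 1.84-fold lower in the EB library (1.70 to 1.99). The sum followed mir-34a, whereas mir-34b, mir-34c and mir-449a were higher in the EB library.

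**Figure D1:**
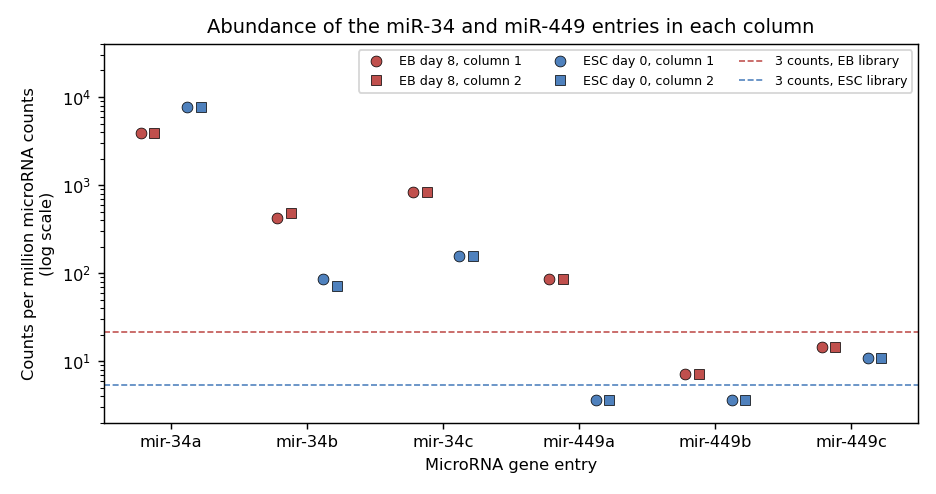
CPM (log axis) of the 6 entries, with the EB columns in red and left of the ESC columns in blue, and a circle and a square for the first and second column of a group. Dashed lines mark 3 counts in each library. The entry mir-34a is at 3925 and 3918 CPM in the EB columns and at 7769 and 7742 CPM in the ESC columns, while mir-34b, mir-34c and mir-449a are higher in the EB columns.

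The entry mir-34a, of the gene whose product is the most widely expressed of the family, was the dominant member in both libraries and the lower one in EBs. It had 546 counts in each EB column, against 4329 and 4317 counts in the ESC columns. These are 3925 and 3918 CPM in the EB columns and 7769 and 7742 CPM in the ESC columns. Both EB columns lay below both ESC columns, which, as each pair is 1 sample, says no more than that the libraries differed. It ranked 31 among the 626 entries of the EB library and 21 among those of the ESC library. After TMM scaling mir-34a was 2.41-fold lower in the EB library (2.20 to 2.64), a log2 fold of -1.27 (-1.40 to -1.14). The direction held under each scaling tried, but the 2-fold threshold did not, with a log2 fold of -0.98 under library totals, -0.62 in the authors' normalized values and -0.99 without EB column 2.

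The pair on chromosome 9 went the other way. The entry mir-34c had 115 counts in each EB column, against 87 counts in each ESC column. Given the shallower EB columns, these correspond to 827 and 825 CPM in EBs and 156 CPM in each ESC column. After TMM scaling mir-34c was 4.35-fold higher in the EB library (3.26 to 5.81), a log2 fold of 2.12. The EB columns lay above the ESC columns on the CPM scale and also in raw counts, although the EB columns were the shallower ones.

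Its neighbour mir-34b, made from the same primary transcript, had 59 and 67 counts in the EB columns, against 48 and 40 counts in the ESC columns. These are 424 and 481 CPM in the EB columns and 86.1 and 71.7 CPM in the ESC columns. The EB values are the higher ones. It was 4.71-fold higher in the EB library after TMM scaling (3.15 to 7.09), a log2 fold of 2.24. The locus sum of 178 EB counts and 131 ESC counts was 4.47-fold higher (3.55 to 5.65).

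The folds of mir-34b and mir-34c did not differ beyond counting error. The ratio of mir-34b to mir-34c counts was 0.548 in the EB library and 0.506 in the ESC library, which differ by a factor of 1.08 (exact conditional interval 0.656 to 1.80). The entry mir-34b took 35.4% of the pair's counts in the EB library (28.4 to 42.9) and 33.6% in the ESC library (25.6 to 42.4). The hairpins of mir-34b and mir-34c share a stretch of 20 bases with 1 mismatch, and the sources used here do not say how reads that match both were assigned. Their agreement was therefore not taken as separate evidence, while the locus sum does not depend on the split between them.

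The miR-449 locus was near the limit of detection. The entry mir-449a had 12 counts in each EB column and 2 counts in each ESC column. That is 86.3 and 86.1 CPM in the EB columns and 3.59 CPM in each ESC column. The EB counts were above the floor of 3 counts, and the ESC counts were below it. The TMM-scaled ratio was 19.7 with a counting interval of 4.39 to 182, so the size of the difference was poorly fixed at this depth. The neighbours were at or near the floor. The entry mir-449c had 2 counts in each EB column and 6 in each ESC column, a ratio of 1.10 (0.108 to 6.13). The entry mir-449b had 1 count in each EB column and 2 in each ESC column, and no fold is given because both libraries were under the floor. For mir-449b and mir-449c this depth could not show a difference, and their sum of 3 EB counts and 8 ESC counts gave a ratio of 1.23 (0.211 to 5.14).

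The make-up of the miR-449 counts differed between the libraries on few reads. The entry mir-449a took 80.0% of the locus counts in the EB library (51.9 to 95.7), or 12 of 15, and 20.0% in the ESC library (2.52 to 55.6), or 2 of 10. The mir-449a to mir-449c ratio differed between the libraries by a factor of 18.0, with an interval of 1.46 to 269. The locus sum was 4.94-fold higher in the EB library (2.07 to 12.3), and this rested on mir-449a. The hairpins of mir-449a and mir-449c share a stretch of 20 bases with 2 mismatches, whereas the hairpins of mir-34a and mir-449a have at least 5 mismatches over any such stretch.

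**Figure D2:**
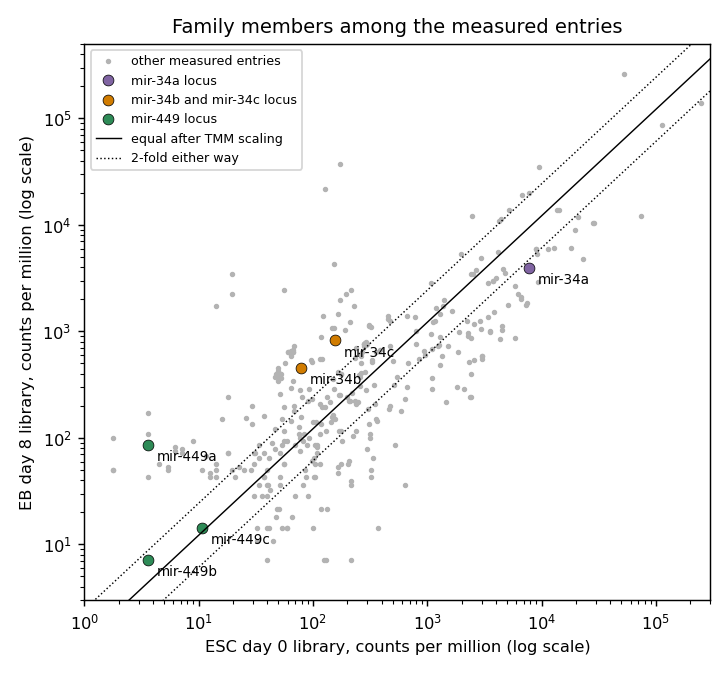
CPM in the EB library against CPM in the ESC library (both log axes) for the measured entries with counts in both libraries (grey) and for the 6 members, coloured by locus. The solid line marks equal levels after TMM scaling and the dotted lines 2-fold either way. The entry mir-34a lies below the lower dotted line, mir-34b, mir-34c and mir-449a lie above the upper one, and mir-449b and mir-449c lie between them.

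Set against the whole table, the members' counts were read beside the share of entries past the same threshold. Of the 6 members, 4 passed the filter on low counts. In the EB library 3 of the 4 were higher by 2-fold or more and 1 was lower by 2-fold or more. Over all 367 measured entries, 33.5% were higher by that margin and 30.2% lower by it, so differences of 2-fold were common in this comparison. Numbered copies were counted as separate entries, so these are not shares of distinct microRNAs. The copies of mir-467a, mir-466b and mir-669a, for example, were nearly all among the higher entries, and those of mir-124 among the lower ones. The filter kept mir-449a through its EB counts alone, so the members that passed are not a neutral sample of the family. The median log2 fold was 2.18 over the 4 measured members and 0.07 over the 367 measured entries. The first median lies between the values of mir-34b (2.24) and mir-34c (2.12), neighbours whose agreement was not taken as separate evidence. It therefore does not describe the family as a whole, whose sum was 1.84-fold lower in the EB library.

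The balance between loci needs no scaling between libraries, since it compares counts within 1 library. The entry mir-34a took 73.9% of family counts in the EB library (70.6 to 77.0) and 96.8% in the ESC library (96.3 to 97.3). The chromosome 9 pair took 24.1% in the EB library (21.04 to 27.3) and 2.93% in the ESC library (2.46 to 3.47). The miR-449 entries took 2.03% in the EB library (1.14 to 3.33) and 0.224% in the ESC library (0.107 to 0.412). The ratio of mir-34b and mir-34c counts to mir-34a counts was 0.326 in the EB library and 0.0303 in the ESC library, a factor of 10.8 (8.38 to 13.8). The ratio of miR-449 to mir-34a counts differed by a factor of 11.9 (4.96 to 29.7), whereas that of miR-449 to the chromosome 9 pair differed by a factor of 1.10 with an interval of 0.447 to 2.84. The interval for the 2 loci that were higher in the EB library includes 1 and is wide, so it does not show that they differed by the same factor.

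**Figure D3:**
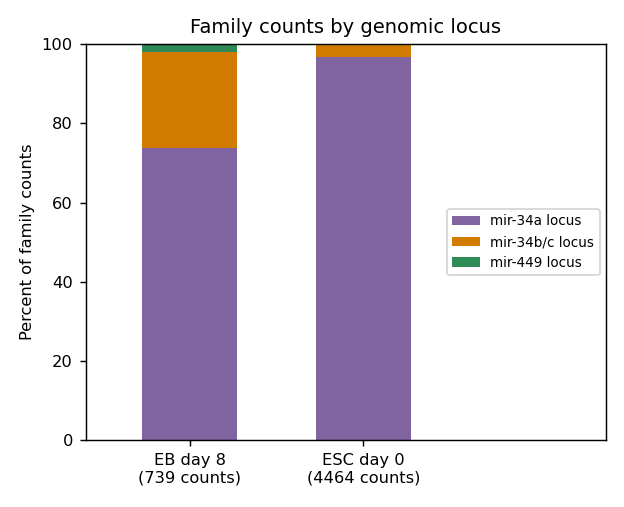
Percent of all family counts taken by each locus in the EB library (left bar, 739 counts) and in the ESC library (right bar, 4464 counts), as stacked bars from the mean of the columns. The mir-34a locus fills 73.9% in EBs and 96.8% in ESCs, and the mir-34b and mir-34c locus fills 24.1% in EBs and 2.93% in ESCs.

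The order of the members within a library was the same at the top. In the EB library mir-34a was followed by mir-34c at 0.0826% of counts (0.0682 to 0.0991), mir-34b at 0.0452% (0.0348 to 0.0579) and mir-449a at 0.00862% (0.00445 to 0.0151), with no overlap between the intervals of these neighbours. The entries mir-449c and mir-449b came last, and the interval of mir-449c overlapped those of mir-449a and mir-449b. In the ESC library the order was mir-34a, mir-34c at 0.0156% (0.0125 to 0.0193), mir-34b at 0.00789% (0.00574 to 0.0106) and mir-449c, with mir-449a and mir-449b tied at 2 counts and not separable from mir-449c. These levels are read counts per hairpin entry of mature sequences that differ little in length (21 to 23 bases), and ligation and PCR may favour some sequences, which was not tested.

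Across scalings, mir-34a and the family sum stayed lower in the EB library and the chromosome 9 pair and mir-449a stayed higher. Each scaling of the counts shifted all log2 folds by a constant, from 0 with library totals to -0.43 with TMM over unfiltered entries. The folds named were larger in size than that shift, so their direction could not change among those settings. The log2 fold of the chromosome 9 sum was 2.16 with TMM, 2.44 with library totals, 2.11 with median-of-ratios size factors, 2.01 with TMM over unfiltered entries and 1.88 in the authors' normalized values. For mir-449a the same settings gave 4.30, 4.59, 4.25, 4.15 and 3.91. The scaling itself shifted all entries, whose median log2 fold was 0.07 with TMM and 0.35 when library totals were used, and -0.19 by the authors' normalized values.

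**Figure D4:**
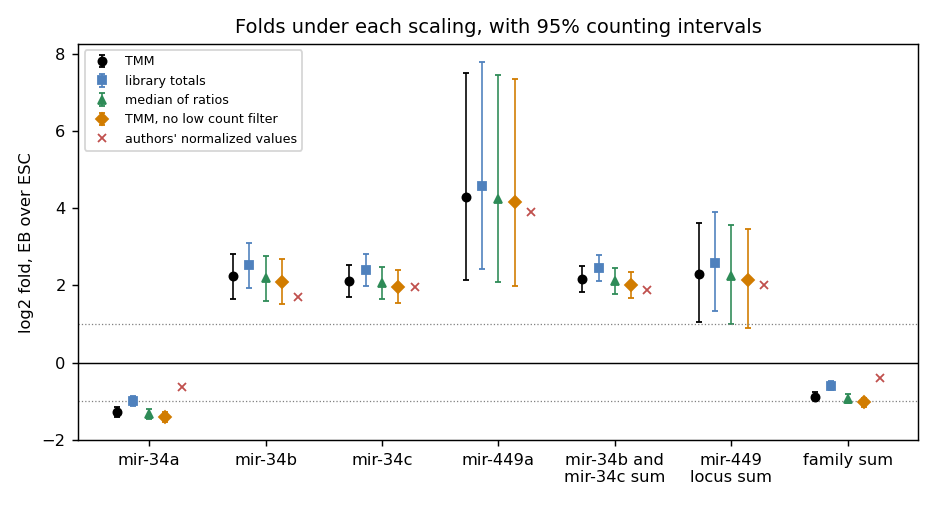
Log2 fold of EB over ESC for the 4 measured members and for the sums, under 5 scalings. Points are folds, bars are exact 95% counting intervals (none for the authors' normalized values), and dotted lines mark 2-fold. The points of mir-34a and the family sum stay below 0 and the other points stay above the upper dotted line. The interval of the miR-449 locus sum reaches below that line with median-of-ratios size factors (0.997) and with TMM over unfiltered entries (0.903).

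Other microRNAs that p53 is known to induce or whose processing it promotes, mostly from work in human cells, were mostly lower in the EB library. Of 13 such entries listed, 12 were in the table and 11 were measured. Of these 11, 8 were lower by 2-fold or more, 0 were higher by 2-fold or more and 3 differed by less, and their median log2 fold was -2.0. The lower entries include mir-192, mir-194-1 and mir-194-2, which also make up the measured endoderm and liver entries above, so those results overlap. The background was again 30.2% of measured entries lower and 33.5% higher, with numbered copies counted as separate entries. Across the other scalings 8 or 9 were lower and 0 or 1 higher, and the median lay between -2.39 and -1.71. The most abundant, mir-16-2 and mir-16-1, copies of a microRNA that slows the cell cycle, were 3.34-fold and 3.31-fold lower (log2 intervals -1.82 to -1.66 and -1.81 to -1.65) and are copies of 1 mature microRNA. With numbered copies summed, the 11 entries came to 9 microRNAs, of which 6 were lower by 2-fold or more and 0 higher. The background was not summed in this way. The entry mir-15a, from the same cluster as mir-16-1, had 40 EB counts and 1173 ESC counts and was 8.91-fold lower (log2 interval -3.65 to -2.70). The entry mir-200c, which guards epithelial identity, had 277 EB counts and 776 ESC counts and was 1.17-fold higher (1.02 to 1.35).

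The entries whose levels were most like those of mir-34a were mir-183, mir-291b and mir-103-1, at Euclidean distances of 0.510, 0.513 and 0.619 between log2 CPM values over the 2 libraries. The entry mir-183 was at 5344 CPM in the EB library and 9204 CPM in the ESC library. The entry mir-291b was at 2887 CPM in the EB library and 9287 CPM in the ESC library. The entry mir-103-1 was at 5882 CPM in the EB library and 8926 CPM in the ESC library. With only 2 libraries this likeness describes levels alone.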

How the data were processed

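Small RNA libraries were made with the Ion Total RNA-Seq kit from about 100 ng of small RNA and sequenced on an Ion Torrent PGM, per the labels' protocols; the sources used here name no aligner, counter, genome build or microRNA release. Original counts per hairpin were deposited by the authors without normalization, per the file headers. The normalized signal was deposited by the authors too, per the file headers, and held 1 set of sorted values in all 4 columns. Original counts were blank at mir-664 and sat 1 row too low in the 170 rows from there on. They were moved up by 1 row, after which their rank correlation with the normalized values was 0.995 to 0.998 (rounded). The counts of mir-99b were rebuilt (70 and 74 in EBs, 1300 and 1306 in ESCs) as the only 1 of 7280 candidate sets that returned every normalized value. The members lie above these rows, so their own counts were not touched, but the totals, the filter and the scaling factors were.

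TMM factors (edgeR 4.0.16) were computed over the 367 entries that filterByExpr kept with a minimum count of 10 and a minimum total of 15. A count test was planned only if the columns of a group differed by more than the sampling noise, which they did not. Folds carry exact conditional binomial intervals (95%, scipy 1.17.1), shares Clopper-Pearson intervals and ratios of ratios exact conditional odds ratio intervals. The fold intervals were tested on simulated counts for the 367 entries. These counts had counting error only and known scaling, so the test does not cover PCR copies or error in the scaling. A library at 0 was set to 3 counts where the other exceeded 3, and no fold was given with both at or under 3. Alternatives were library totals, DESeq2 1.42.0 size factors, no filter, the normalized values, each column left out, the unmoved register, a floor of 1 count and a 1.5-fold threshold. The floor of 1 count could not change the recomputed folds, since every member had counts in both libraries. Named entries were the 6 members, up to 4 of the most abundant p53-linked microRNAs and the 3 entries nearest to mir-34a. Any entry sharing the seed of a member's 5′ sequence was also to be named. The seeds of the 3′ sequences were not searched for in other entries. The members and lists were chosen with earlier results of these data known. R 4.3.3, Python 3.11.15, numpy 2.4.6, pandas 2.3.3 and matplotlib 3.10.9 were used.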

Additional observations from a re-analysis of the deposited data

How the results depend on the processing

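Of 156 recomputed values, 13 moved beyond the main interval or count. Only the folds among the 156 could change direction, and none did where the main counting interval excluded no difference. Some values could not move, such as shares of a library whose columns were both kept and folds under the floor of 1 count. The log2 fold of mir-34a was -0.98 with library totals, -1.42 with no low count filter, -0.62 in the authors' normalized values and -1.32 to -0.99 over the settings that left out 1 column. The family sum was at -0.59, -1.03 and -0.39 in the same settings and at -0.93 to -0.61 with 1 column left out. With library totals, in the authors' normalized values and without EB column 2, 0 members were at least 2-fold lower in place of 1. The number at least 2-fold higher was 3 in every setting run. Leaving out a column also changed which entries passed the filter on low counts, from 322 to 384. Folds of the chromosome 9 pair and the miR-449 locus, shares and balances stayed within their counting intervals. The depth of the EB library limits mir-449b and mir-449c, for which 1 count is 7.18 CPM there and 1.79 CPM in the ESC library. No paired analysis was possible because each pair of columns counts as 1 sample and the results come from no test.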
